A study of Arabidopsis thaliana with 2 samples.

Results

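The APETALA2-like genes AP2, TOE1, TOE2, TOE3, SMZ and SNZ encode transcription factors that bind DNA through AP2 domains, and their transcripts carry a binding site for the microRNA miR172. The 6 genes were chosen by their locus identifiers. The deposited table lists 4 of them among its 11666 genes: TOE1 (AT2G28550), TOE2 (AT5G60120), SMZ (AT3G54990) and SNZ (AT2G39250). AP2 (AT4G36920) and TOE3 (AT5G67180) have no row there, and their expression was not analysed here. RNA was sequenced from whole seedlings of wild-type Arabidopsis thaliana and of the ago1-36 mutant, grown for 12 days on plates with 3% sucrose at 23 °C and 16 h of light. ARGONAUTE1 (AGO1), the gene mutated in ago1-36, encodes the protein that carries most plant microRNAs to their targets. The labels give 1 library for each genotype and name no transgene or further treatment, so no difference has a replicate check and no test between genotypes was possible. How many seedlings went into a library is not given in the sources used here.

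The AP2-like proteins hold back the change from juvenile to adult growth and the onset of flowering. They repress flowering genes such as FT, the leaf-made signal that starts flowering, and SOC1, and in the flower AP2 also sets organ identity. As a plant ages, SPL transcription factors, themselves kept low by miR156, switch on miR172 genes. miR172, loaded into AGO1, then lowers the AP2-like proteins, by cutting their transcripts and by blocking their translation. AP2 and SMZ are also known to bind genes of their own family, and AP2-like proteins feed back on their own transcription. The comparison addressed which transcripts, microRNA targets among them, had different levels when AGO1 was impaired.

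The 5 MIR172 genes of the TAIR10.1 reference (RefSeq) yield 3 forms of mature miR172, shown because they define the site. All share the same seed (bases 2 to 8 from the 5′ end), given in capitals. The miR172a form is also that of miR172b-3p, and the miR172c form that of miR172d-3p. The miR172a copy lies on chromosome 2 from 11942918 to 11942938 (minus strand). That of miR172b-3p lies on chromosome 5 from 1188211 to 1188231 (minus strand). On chromosome 3, miR172c lies from 3599791 to 3599811 (minus strand) and miR172d-3p from 20587991 to 20588011 (plus strand). The miR172e-3p copy lies on chromosome 5 from 23988566 to 23988586 (plus strand).
miR172a: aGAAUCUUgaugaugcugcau
miR172c: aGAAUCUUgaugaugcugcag
miR172e-3p: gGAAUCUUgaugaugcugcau
The best-matching stretch in the coding sequence of each AP2-like gene is given 5′ to 3′, as DNA letters of the same reference, with the bases opposite the seed in capitals.
AP2: ctgcagcatcatcAGGATTCt
TOE1: cagcagcatcatcAGGATTCt
TOE2: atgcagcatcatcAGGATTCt
TOE3: tggcagcatcatcAGGATTCt
SMZ: ttgcagcatcatcAGGATTCc
SNZ: ttgtagcatcatcAGGATTCc
The part opposite the seed is the same in all 6 genes. Each differs there from a perfect complement of miR172a by A15G (perfect base, position from the 5′ end of the site, gene base), which puts a G opposite a U of the microRNA. TOE2 differs at this position alone. AP2 also has A1C, TOE1 has A1C and T2A, and TOE3 has A1T and T2G. SMZ has A1T and T21C, and SNZ, the most divergent with 4 differences, has A1T, C4T and T21C.

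The listed members carry the site near the end of the coding sequence. In TOE1, on chromosome 2 from 12225656 to 12228624 (minus strand; named RAP2.7 in the reference), it lies in exon 9 from 12226233 to 12226253. In TOE2, on chromosome 5 from 24207689 to 24211743 (plus strand), it lies in exon 9 from 24210889 to 24210909. In SMZ, on chromosome 3 from 20373718 to 20376522 (minus strand), it lies in exon 7 from 20373774 to 20373794. In SNZ, on chromosome 2 from 16388691 to 16391176 (minus strand), it lies in exon 7 from 16389066 to 16389086. The sites begin 93.8%, 88.3%, 92.6% and 92.1% of the way along the coding sequences of TOE1, TOE2, SMZ and SNZ. All 6 transcript models of TOE1, all 6 of TOE2 and both of SNZ contain the site, whereas 1 of the 2 SMZ models and 1 of the 4 TOE3 models do. The table gives 1 value per gene, so models with and without the site cannot be told apart.

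**Figure D1:**
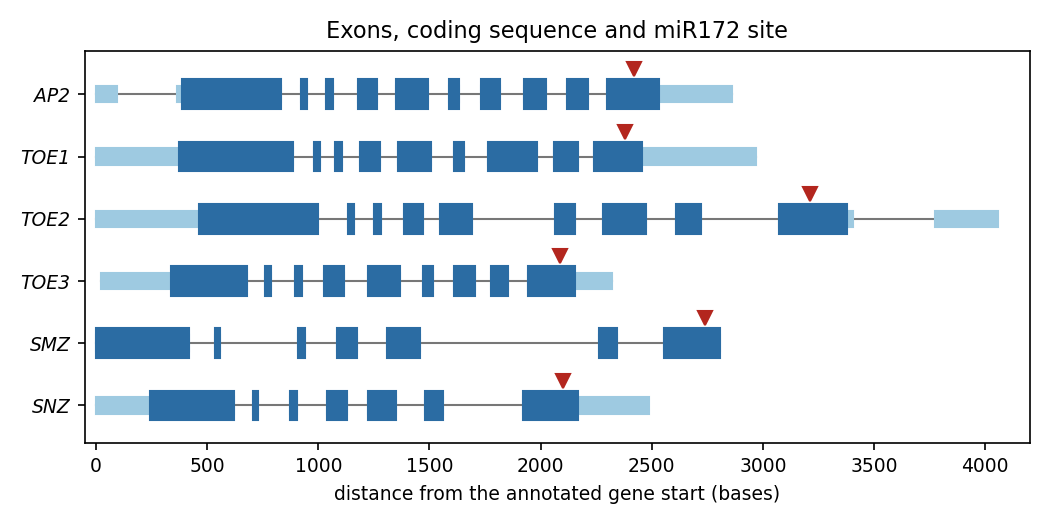
Gene models of the 6 AP2-like genes (the transcript with the longest coding sequence of each), plotted as distance in bases from the annotated gene start. Light boxes are exons, dark boxes are coding sequence, lines are introns and the triangle marks the miR172 site. In every model the site sits late in the coding sequence; the SMZ model has no annotated UTR.

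All 4 listed members had a lower RPKM (reads scaled to 1000 bases of gene length and to 1000000 reads) in the ago1-36 library than in the wild-type library. The loss was 96.3% of the wild-type level for SNZ, 63.6% for SMZ, 46.7% for TOE1 and 27.6% for TOE2. The words higher and lower compare these 2 libraries throughout. Differences are given as a plain RPKM ratio, with a 95% interval that covers counting error only, and as the log2 ratio of RPKM plus 1. A gene counted as 2-fold lower or higher by this second measure.

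SNZ, a repressor of flowering, stood at 11.1 RPKM in wild-type against 0.414 RPKM in ago1-36, from 188 and 7 reads. This was a 26.7-fold lower RPKM (95% counting interval 12.7 to 67.3) and a log2 ratio of -3.09. Of 11373 genes that reached 1 RPKM in at least 1 library (kept genes), it had the 43rd lowest log2 ratio. With 1 RPKM added, 48 kept genes were 8-fold or more lower, and SNZ was 1 of 17 among the 4066 with a wild-type level from 5 to 20 RPKM. On that scale a gene at 5 RPKM in wild-type cannot reach 8-fold, and both counts are smaller than by the plain ratio. SNZ passed the filter through its wild-type value alone.

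SMZ, the closest relative of SNZ and likewise a repressor that acts on FT, stood at 8.66 RPKM in wild-type against 3.16 RPKM in ago1-36, from 127 and 46 reads. It was 2.74-fold lower (95% counting interval 1.94 to 3.93), with a log2 ratio of -1.22. That log2 ratio was the 605th lowest of the kept genes.

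TOE1, which delays both adult leaf traits and flowering, was by far the most abundant member per length. It stood at 61.9 RPKM in wild-type against 33.0 RPKM in ago1-36, from about 1758 and 931 reads. The difference was 1.88-fold (95% counting interval 1.73 to 2.03), with a log2 ratio of -0.89, short of the 2-fold mark. The authors' deposited table gives TOE1 a log2 fold change of -1.09, past that mark; at high levels its values differ from the log2 RPKM ratio by -0.185.

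TOE2, which acts redundantly with TOE1, stood at 8.40 RPKM in wild-type against 6.08 RPKM in ago1-36, from 264 and 190 reads. It was 1.38-fold lower (95% counting interval 1.14 to 1.67), with a log2 ratio of -0.41. Among the kept genes 28.3% had a log2 ratio as low or lower, so TOE2 did not stand apart from them.

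**Figure D2:**
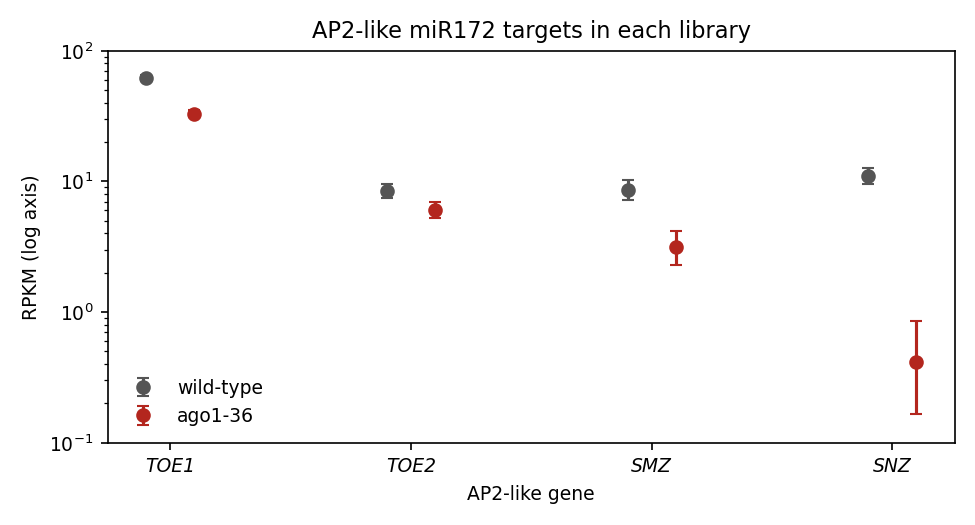
RPKM (log axis) of the 4 listed members in the wild-type library (grey) and the ago1-36 library (red); bars are exact 95% Poisson limits on the reads and cover counting error only. The wild-type point is above the ago1-36 point for each gene, by 1.38-fold for TOE2 and by 26.7-fold for SNZ.

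By count, 2 of the 4 listed members were at least 2-fold lower, against 8.38% of all kept genes. None was at least 2-fold higher, against 19.6% of all kept genes. All 4 were lower by some amount, against 51.5% of kept genes, and the members' median log2 ratio was -1.05 against -0.04 over all kept genes. By the authors' deposited log2 fold changes, 3 of the 4 were at least 2-fold lower, and over all kept genes 1791 were lower and 2249 higher, in place of 953 lower and 2228 higher. The table holds few genes that are slightly higher in ago1-36, seen as an empty band in the plot of all kept genes: log2 ratios between 0.1 and 0.3 were found for 38 kept genes, those between -0.1 and 0.1 for 680, and those between 0.3 and 0.5 for 681. Each of these shares, and each rank given above, therefore describes listed genes only. In the authors' deposited table the GFOLD score, a log2 fold change made cautious for low counts, was -3.45 for SNZ, -1.07 for SMZ, -0.96 for TOE1 and -0.33 for TOE2. Every listed gene had a nonzero GFOLD score, the smallest absolute value being 2.98e-05. The rule by which genes came to be listed is not given in the sources used here. The shares may therefore differ from those over all expressed genes.

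**Figure D3:**
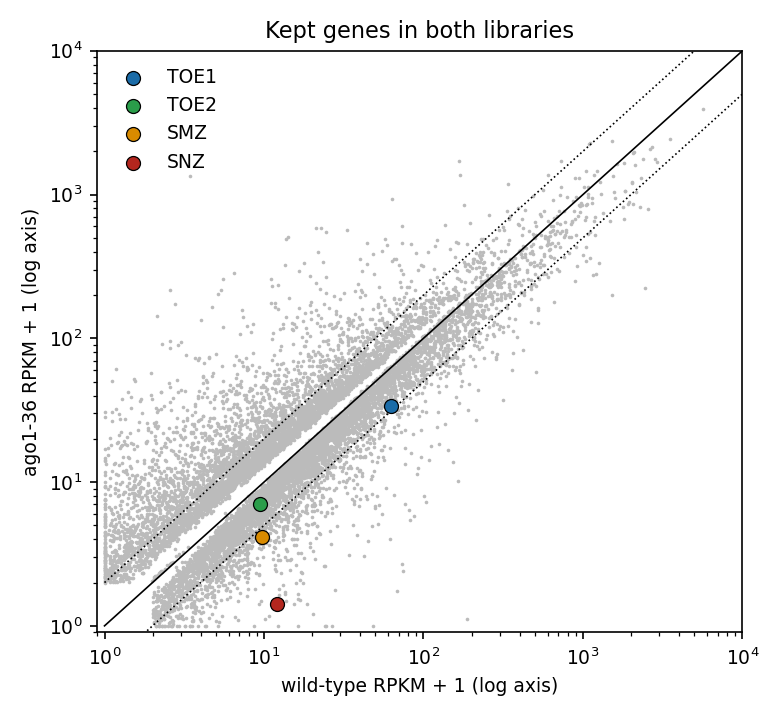
Each grey point is a kept gene, by its wild-type RPKM plus 1 (x, log axis) and its ago1-36 RPKM plus 1 (y, log axis); the solid line marks equal values and the dotted lines 2-fold differences. SNZ and SMZ lie below the lower dotted line, TOE1 and TOE2 between it and the solid line, and the empty band just above the solid line holds 38 genes with a log2 ratio from 0.1 to 0.3.

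The order of the members also differed between the libraries. In wild-type, TOE1 (95% counting limits 59.1 to 64.9 RPKM) stood above SNZ (9.53 to 12.7 RPKM), SMZ (7.22 to 10.3 RPKM) and TOE2 (7.42 to 9.48 RPKM). The limits of SNZ and SMZ overlapped, as did those of SMZ and TOE2. In ago1-36 the order was TOE1 (30.9 to 35.2 RPKM), TOE2 (5.25 to 7.01 RPKM), SMZ (2.31 to 4.21 RPKM) and SNZ (0.166 to 0.853 RPKM), and no neighbours overlapped. SNZ thus went from the second highest of the listed members to the lowest. Relative to SMZ, the fall of SNZ was 9.67 times larger (95% counting interval 4.16 to 26.2). The fall of SMZ was 1.46 times that of TOE1 (95% counting interval 1.03 to 2.12), and that of TOE1 was 1.36 times that of TOE2 (95% counting interval 1.10 to 1.67). These intervals hold no variation between seedlings or library preparations.

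Summed over the 4 genes, AP2-like transcript was 90.1 RPKM in wild-type against 42.6 RPKM in ago1-36. TOE1 held 68.8% of the sum in wild-type and 77.4% in ago1-36, while SNZ went from 12.3% to 0.971%. Without TOE1 the sums were 28.1 and 9.65 RPKM. The longest stretch of identical bases shared by transcripts of any 2 of the 6 genes was 26 bases, and 23 between SMZ and SNZ. No listed gene overlaps a listed member in the annotation. SMZ does overlap AT3G54980, which is not listed, and the reads of these neighbours may not be separable.

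The genes that switch on miR172 had the opposite direction. Of 5 SPL genes that are miR156 targets and act upstream of miR172, all 5 were listed and 4 were at least 2-fold higher in ago1-36 (19.6% of all kept genes were), with a median log2 ratio of 1.84. SPL9, the best-studied direct activator of a miR172 gene, stood at 2.53 RPKM in wild-type against 17.7 RPKM in ago1-36. SPL15, a promoter of flowering, had 1.43 and 9.62 RPKM, though it overlaps the listed gene AT3G57910 and the reads of these neighbours may not be separable. SPL2 had 12.4 and 47.1 RPKM, and SPL10 had 3.397 and 10.4 RPKM. SPL11 had 7.09 and 14.7 RPKM, a log2 ratio of 0.96 just short of the mark, though 2.08-fold higher as a plain ratio. The 5 MIR172 precursor genes have no row in the table, and mature miR172 was not measured.

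Genes known to be repressed by AP2-like proteins, or to act with them in flowering, did not move together. Of 9 such genes 4 were listed and 3 were kept, with 1 at least 2-fold higher and 1 at least 2-fold lower. FUL, a MADS-box gene that promotes flowering, stood at 3.24 RPKM in wild-type against 21.1 RPKM in ago1-36, 6.52-fold higher (95% counting interval 4.83 to 8.97). AGL24, a MADS-box gene that likewise promotes flowering, had 37.4 and 3.28 RPKM, 11.4-fold lower (95% counting interval 8.44 to 15.7). SOC1, which joins the flowering pathways, had 15.6 and 14.4 RPKM. SEP3, a floral organ gene, was at 8 and 1 reads and under the filter. FT itself was not analysed here.

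Other repressors of FT that belong to a different family were both higher, 1 of them past 2-fold. TEM1, which also binds FT, stood at 22.3 RPKM in wild-type against 68.9 RPKM in ago1-36, 3.09-fold higher (95% counting interval 2.76 to 3.45). Its paralogue TEM2 had 16.8 and 25.6 RPKM, 1.52-fold higher (95% counting interval 1.33 to 1.73). These were the 2 listed genes of 9 FT regulators looked for. Among the TOPLESS corepressors, through which AP2 represses its targets, 2 of 6 list genes (HDA19 included) were present. TPR1 had 7.09 and 9.71 RPKM and TPR2 had 9.42 and 8.55 RPKM, neither past 2-fold.

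Relatives with a pair of AP2 domains but no miR172 site were set beside the members, whose own number of AP2 domains was not examined here. Of 11 such relatives 4 were listed and kept, with a median log2 ratio of 0.89. On the scale with 1 RPKM added, AIL7 alone was past 2-fold, at 1.37 RPKM in wild-type against 6.68 RPKM in ago1-36. AIL6, which acts with AIL7 in shoot meristems and flowers, had 3.36 and 7.71 RPKM, with a log2 ratio of 0.998 just under the mark and a plain ratio of 2.29-fold higher (95% counting interval 1.83 to 2.88). WRI1, an activator of oil synthesis, had 13.3 and 23.6 RPKM. BBM, an embryo regulator, had 26 and 7 reads, 1.08 and 0.293 RPKM. Its log2 ratio with 1 added was -0.69, while its plain ratio was 3.69-fold lower (95% counting interval 1.56 to 10.1). Thus 3 of these 4 had a higher and 1 a lower value, against 4 lower values among the 4 members with a site. No test of that difference was possible.

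**Figure D4:**
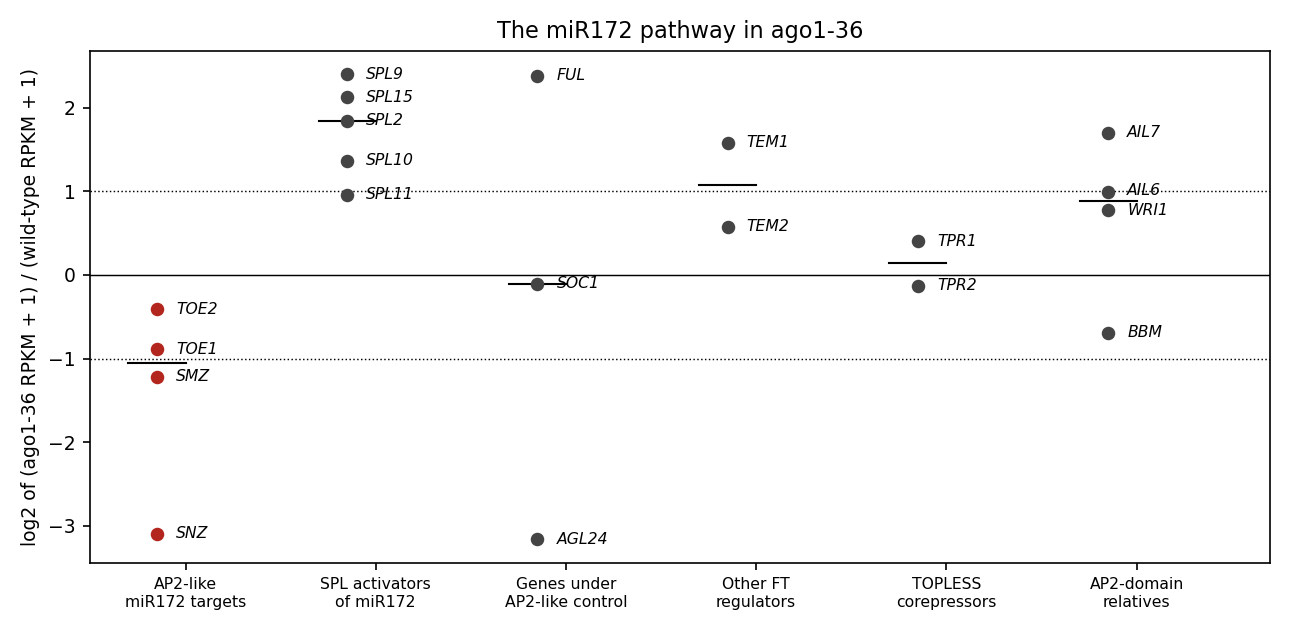
Each point is a kept AP2-like member or a kept gene of a list set beside them, by its log2 ratio of RPKM plus 1 (ago1-36 over wild-type). Bars are list medians and dotted lines mark 2-fold. The 4 AP2-like members (red, median -1.05) lie below 0 and the 5 SPL genes (median 1.84) above it, while the other lists go both ways or hold 2 genes.

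Likeness to a member could be judged over only 2 libraries, as the distance between genes in log2 of RPKM plus 1. The 3 kept genes nearest to SNZ were AT5G58390 at 10.5 and 0.422 RPKM, XTH17 at 12.8 and 0.491 RPKM, and YAB5 at 11.4 and 0.650 RPKM. XTH17 encodes a cell wall enzyme and YAB5 a leaf polarity factor. The first alone lay within a distance of 0.2 of SNZ, whereas 173 kept genes lay that near to TOE2. Those nearest to TOE2 were AT5G17630, CCT and AT5G05790, at 8.29 to 8.53 RPKM in wild-type and 6.14 to 6.24 RPKM in ago1-36.

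As a check of the labels, AGO1 stood at 48.6 RPKM in wild-type against 5.59 RPKM in ago1-36. From annotated exon lengths, the libraries were estimated to hold about 13670000 and 13590000 reads. Markers of several tissues differed between them, which bears on values from whole seedlings, where fewer cells of a type and less RNA per cell cannot be told apart. All 7 leaf mesophyll markers were lower in ago1-36, 4 of them past 2-fold, with a summed level of 11556 RPKM in wild-type against 6092 RPKM in ago1-36. The 3 listed of 5 root hair markers were all past 2-fold lower, at 28.1 and 3.97 RPKM in sum. The mesophyll marker LHCB1.3 overlaps the listed gene AT1G29940, and the root hair marker EXPA7 overlaps the listed gene AT1G12570. The reads of these neighbours may not be separable. Of 4 shoot meristem markers 2 were listed, STM and KNAT1, both lower and KNAT1 alone past 2-fold, at 10.1 and 3.84 RPKM in sum. STM had a log2 ratio of -0.82 with 1 added, though it was 2.28-fold lower as a plain ratio (95% counting interval 1.43 to 3.73). The 5 listed of 7 seed and embryo markers were past 2-fold higher, at 0.448 and 61.8 RPKM in sum, with 2 of them at 0 in wild-type. Of 7 flower markers SEP3 alone was listed. The part of these tissue differences in the levels of the AP2-like genes was not tested.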

How the data were processed

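Whole-seedling total RNA was extracted with TRIzol and sequenced from SMART libraries, as the labels' protocols state. The submitters' processing notes name TopHat2 2.0.11 and the TAIR10 build. For the counting tool, gene annotation and strand setting, nothing is given in the sources used here. The authors deposited 1 table that holds, by its headers, an RPKM value for each gene and library, a log2 fold change and a GFOLD score. After 291 repeated lines were dropped and 2 fragment lines left out, 11666 genes remained.

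To each RPKM 1 was added, and the log2 ratio of ago1-36 to wild-type was taken for 11373 genes that reached 1 RPKM in either library, with calls at 2-fold. Reads were recovered from the RPKM values and the deposited log2 fold change (offset 0.177, ratio of totals 0.994). Of 2211 genes under 100 reads, 100% came out whole within 0.1 reads, and 71.5% from 100 to 300 reads; larger numbers are estimates, and 12 genes gave none. Library totals came from annotated exon lengths of 4298 genes (406 at the most frequent value). Intervals are exact 95% limits (Clopper-Pearson for ratios, Poisson for levels, conditional exact for a ratio of ratios). Without molecular identifiers, amplified reads are not independent molecules, so these limits cover counting error only. The SMART method can favour some regions of a transcript.

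Sites were found by comparing each mRNA of TAIR10.1, whose build name differs from the submitters' TAIR10, with the reverse complement of miR172; all coordinates are TAIR10.1, and the table holds none. The steps ran in Python 3.11.15, numpy 2.4.6 and scipy 1.17.1. The recovery of reads under 100, the 2-fold calls and the Clopper-Pearson intervals were tested on simulated data, and the other steps were not. The members and the 11 lists (72 further genes) were chosen with earlier results of these data known. The text names every listed member, AGO1, each kept list gene past 2-fold or else the 2 largest of a list, and the 3 genes nearest to the most and the least altered member. Marker genes are given as sums, and other list genes and the genes of the site search were named after their values were seen. Alternatives were pseudocounts of 0.1 and 0.5, a filter of 5 RPKM or none, 3 rescalings and the authors' log2 fold change.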

Additional observations from a re-analysis of the deposited data

How the results depend on the processing

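All 4 listed members stayed lower in ago1-36 under all 8 alternatives. Of these, a change of filter could not alter a member's log2 ratio, and a change of pseudocount could not turn its sign. The count at least 2-fold lower stayed at 2 except by the authors' deposited log2 fold change, where TOE1 at -1.09 made it 3. The log2 ratio of SNZ was -4.44 with a pseudocount of 0.1 and -4.74 in the authors' deposited table, since an added 1 RPKM understates so low a value. In that source, 1791 kept genes were at least 2-fold lower, and the medians were -1.72 for mesophyll and -3.26 for root hair markers. The root hair median was -3.06 with a pseudocount of 0.1, and the mesophyll median -1.48 after scaling by the median of ratios. When the scaling left out organelle genes and the top 50 genes by level, the mesophyll median was -1.61. The median of flowering genes was then -0.55 in place of -0.10, with SEP3 kept as well as the scale altered; with SEP3 kept at the deposited scale it was -0.30. The median of all kept genes was -0.23 in the authors' table and -0.11 in that scaling. The median of the 2 TOPLESS genes turned from 0.14 to -0.03 by the authors' table. The seed and embryo median of 2.51, from genes near 0 in wild-type, was 5.59 with a pseudocount of 0.1, 5.35 by the authors' table and 4.52 under a filter of 5 RPKM. The 132 other values, that last one included, moved by less than the counting limits (for a list, the median limits of its genes with reads in both libraries) or, for counts, by no more than 1.5 times. Depth limits SNZ most, whose ago1-36 level rests on 7 reads. No paired analysis was possible because each genotype has 1 library.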

Other observations

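Set side by side over the 4 listed members, the number of differences between the site and a perfect complement of miR172a was 1 in TOE2, 3 in TOE1, 3 in SMZ and 4 in SNZ. Against the closest miR172 form the numbers were 1, 2, 2 and 3 in the same order. The RPKM was 1.38-fold, 1.88-fold, 2.74-fold and 26.7-fold lower in ago1-36 in the same order. With 4 genes, a tie and 1 library per genotype this is a description only.

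A search of 52059 mRNA models of 31346 genes for a stretch with at most 3 mismatches to the complement of any miR172 form, counting G opposite U as a mismatch, found 8 genes (0.0255%). These were the 6 AP2-like genes and 2 others, both listed. Each of the 2 others had 3 mismatches, the same number as SNZ in this search, with a smaller fold than SNZ. BZIP34 (AT2G42380), a bZIP transcription factor gene, stood at 12.8 RPKM in wild-type against 2.41 RPKM in ago1-36, from 272 and 51 reads. It was 5.30-fold lower (95% counting interval 3.92 to 7.30). AT5G12900, which has no symbol in the reference, had 12.95 and 6.36 RPKM, 2.04-fold lower (95% counting interval 1.70 to 2.45) with a log2 ratio of -0.92. Both of these further genes had a lower value in the ago1-36 library, as had 51.5% of kept genes. They were named after their values were seen, and the listed members found by the search are those already counted above. A match in letters does not show that miR172 acts there.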
